A study of Mus musculus with 7 samples.

Results

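The heavy chain variable (Ighv) genes were followed through 7 bulk RNA sequencing libraries of splenic memory B cells (MBCs) and plasma cells (PCs). The members were all rows of the deposited table whose gene symbol begins with Ighv and a digit, which gave 185 of 48795 genes. All libraries came from female wild-type C57BL/6 mice, 8 to 12 weeks old, whose spleens were taken 10 days after an intravenous dose of sheep red blood cells (SRBCs), an antigen that needs T cell help. B cells were enriched with CD43 beads. The 3 MBC libraries were sorted as B220+ CD138- IgD- CD38+ CD273+ cells, and the 4 PC libraries as B220-low CD138+ IgD- cells. Neither the number of cells sorted nor whether a library came from 1 mouse or from a pool is given in the sources used here, so p-values measure the spread between these libraries.

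Each developing B cell joins 1 V gene to a D and a J segment on the heavy chain locus, and its descendants keep that V gene. The V segment encodes most of the antigen-binding domain of the heavy chain, including its first and second hypervariable loops. The V gene profile of a sorted population therefore reads out both how strongly the antibody genes are transcribed and which B cell families, or clones, the population holds. A population grown from few clones is dominated by few V genes, whereas a broad one spreads its transcripts over many. PCs are known for very high antibody transcription, and MBCs for lower transcription of a membrane-bound receptor.

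The members lie on chromosome 12 between positions 113572927 and 116010093 of the GRCm38 build, over 2437 kb, and 183 of them are on the minus strand. The annotation calls 113 of them V genes and 70 V pseudogenes. The other 2 are plus-strand rows that carry the symbols of the minus-strand genes Ighv5-8 and Ighv1-13. The members fall into 16 families, named by the first number of the symbol. Ighv1, often called the J558 family, is the largest with 93 members, of which 39 are pseudogenes. It is followed by Ighv5 with 22, Ighv8 with 16 and Ighv2, the Q52 family, with 11.

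The V exons (exon 2 of 2) of 7 genes on which the results turn are shown 5′ to 3′, the first 300 bases of each, from the minus strand of GRCm38, as the GENCODE M21 transcripts give them. Ighv1-59 and Ighv1-39 led MBC replicate 1, Ighv8-8 led MBC replicate 2, and Ighv1-9 had the highest mean share in PCs. Ighv7-1 and Ighv11-2 had the largest fold changes, and Ighv1-72 has a near-identical copy. Capitals mark bases that differ from the most similar other member in a global alignment of the V exons. Ighv1-59 (chr12:115335087-115335386) is set against Ighv1-69, Ighv1-39 (chr12:114914604-114914903) against Ighv1-42, Ighv8-8 (chr12:115294074-115294373) against Ighv8-5 and Ighv1-9 (chr12:114583574-114583873) against Ighv1-63. Ighv7-1 (chr12:113896425-113896724) is set against Ighv7-3, Ighv11-2 (chr12:114048248-114048547) against Ighv11-1 and Ighv1-72 (chr12:115757989-115758288) against Ighv1-62-3.
Ighv1-59: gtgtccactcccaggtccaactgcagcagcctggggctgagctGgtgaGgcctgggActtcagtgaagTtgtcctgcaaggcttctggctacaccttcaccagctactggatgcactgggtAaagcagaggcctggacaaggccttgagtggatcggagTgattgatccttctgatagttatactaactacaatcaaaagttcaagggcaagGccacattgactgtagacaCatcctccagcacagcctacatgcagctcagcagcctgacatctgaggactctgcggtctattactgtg
Ighv1-39: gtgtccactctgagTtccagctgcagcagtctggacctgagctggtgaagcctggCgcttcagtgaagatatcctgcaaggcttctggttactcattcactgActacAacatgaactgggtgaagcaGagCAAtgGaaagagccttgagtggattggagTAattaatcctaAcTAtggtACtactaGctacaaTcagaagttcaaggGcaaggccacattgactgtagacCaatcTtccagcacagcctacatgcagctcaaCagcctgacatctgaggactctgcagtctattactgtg
Ighv8-8: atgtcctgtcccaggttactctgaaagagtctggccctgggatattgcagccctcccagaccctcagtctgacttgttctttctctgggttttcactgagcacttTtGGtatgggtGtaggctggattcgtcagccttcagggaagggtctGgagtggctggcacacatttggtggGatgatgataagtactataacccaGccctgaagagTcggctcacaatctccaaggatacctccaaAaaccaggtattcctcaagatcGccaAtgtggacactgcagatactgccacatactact
Ighv1-9: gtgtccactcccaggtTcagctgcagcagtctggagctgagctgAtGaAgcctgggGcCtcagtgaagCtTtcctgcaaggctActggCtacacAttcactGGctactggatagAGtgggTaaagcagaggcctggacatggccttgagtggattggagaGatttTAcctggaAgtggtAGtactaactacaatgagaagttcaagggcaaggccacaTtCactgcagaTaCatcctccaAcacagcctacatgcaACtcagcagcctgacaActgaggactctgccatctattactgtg
Ighv7-1: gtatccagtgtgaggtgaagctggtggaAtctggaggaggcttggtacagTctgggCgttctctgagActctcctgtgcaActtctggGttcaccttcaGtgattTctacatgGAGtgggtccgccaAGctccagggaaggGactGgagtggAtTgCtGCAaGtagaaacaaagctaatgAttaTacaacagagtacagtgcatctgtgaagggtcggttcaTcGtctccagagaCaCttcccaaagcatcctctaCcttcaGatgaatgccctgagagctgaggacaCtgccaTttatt
Ighv11-2: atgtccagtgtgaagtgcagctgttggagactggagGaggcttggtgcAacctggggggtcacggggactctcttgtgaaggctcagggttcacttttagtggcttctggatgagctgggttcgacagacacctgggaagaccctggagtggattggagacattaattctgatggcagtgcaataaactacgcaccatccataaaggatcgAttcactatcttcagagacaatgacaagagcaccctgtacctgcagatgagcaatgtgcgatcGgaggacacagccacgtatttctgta
Ighv1-72: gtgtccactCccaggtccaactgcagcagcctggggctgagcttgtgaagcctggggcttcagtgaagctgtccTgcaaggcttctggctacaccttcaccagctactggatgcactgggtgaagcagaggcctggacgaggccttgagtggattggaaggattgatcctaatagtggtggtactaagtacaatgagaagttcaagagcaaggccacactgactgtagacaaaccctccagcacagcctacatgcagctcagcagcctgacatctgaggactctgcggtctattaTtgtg

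These genes differed widely in how well a short read can tell them from their relatives. Over the whole V exon, Ighv1-9 shared 90.2% of its bases with its nearest relative, Ighv7-1 89.0% and Ighv1-39 92.8%. Ighv1-59 shared 97.4% with Ighv1-69, Ighv11-2 98.7% with Ighv11-1 and Ighv1-72 99.0% with Ighv1-62-3. Of the 50-base stretches of the transcript, 99.3% occurred in no other Ighv transcript for Ighv1-9, 100% for Ighv7-1, 92.7% for Ighv1-39, 75.4% for Ighv8-8 and 63.2% for Ighv1-59, but 7.49% for Ighv1-72. The median identity to the nearest member over the 183 minus-strand genes was 93.8%, and 16 of them reached 98%. Levels of such near-identical members are uncertain, since the quantification divides shared reads between them.

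The depth behind the Ighv values differed between the groups. The files give no read totals. From the steps in low TPM values, an estimated 4351, 3603 and 4226 reads made up the Ighv total of the MBC libraries, replicate by replicate, and between 153569 and 274522 in the PC libraries. A single read was therefore worth 0.0230% to 0.0278% of the Ighv total in MBCs and less than that in every PC library. For a gene listed at 0 in an MBC library, counting error leaves room for an expected count of up to 3 reads. That allows 0.0689%, 0.0833% and 0.0710% of the Ighv total in replicates 1 to 3, for counting error only.

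The library labelled MBC replicate 3 stood apart from the other MBC libraries. Cd38, the surface marker by which MBCs were gated, had 6.77 scaled TPM there and 130 and 186 in replicates 1 and 2, and Ccr6, a chemokine receptor gene of memory B cells, 2.26 against 108 and 136. Scaled TPM is the deposited TPM divided by a factor per library that brings the typical gene to a common level. Bcl6, a transcription factor gene of germinal center B cells, was instead at 105 in that library, against at most 26.7 in the other MBC libraries. Sdc1, which encodes CD138, was at 0, 0 and 0.0585 in the 3 MBC libraries and between 49.6 and 78.1 in PCs. The main results are therefore given with and without it. Without it, 89 Ighv genes were called higher in PCs and none lower, of 109 tested, and of the 26 named genes the call of Ighv8-8 alone was lost, while the fitted value of the uncalled Ighv3-2 turned to -0.13. Of other cell types, the 6 T cell markers summed to between 0 and 1.08 scaled TPM in MBCs and 14.6 to 35.2 in PCs, with Cd8a at 0 in 6 of 7 libraries, and the 4 erythroid markers to 2897 in MBC replicate 2 and at most 72.6 elsewhere. The part of these cells in the results was not tested.

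Ighv transcripts filled a much larger part of the PC libraries. Of all TPM they took 0.490%, 0.390% and 0.260% in the MBC libraries, in order of replicate, and 10.9%, 10.4%, 11.6% and 9.72% in the PC libraries. MBCs averaged 0.380% ± 0.115 (SD, n = 3) and PCs 10.7% ± 0.797 (SD, n = 4), which is 28.1-fold higher, or 24.2-fold without the library labelled MBC replicate 3. Weighted by transcript length, taken as that of each gene's longest annotated transcript, the means were 0.0543% and 2.68%, a 49.3-fold difference. The groups did not overlap. In bulk RNA, fewer cells of a type and less RNA per cell cannot be told apart.

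Relative to the constant genes with which they are spliced, V genes were also higher in PCs. The summed Ighv TPM divided by that of the 8 heavy chain constant genes was 0.681, 0.535 and 0.773 in the MBC libraries and 1.21, 1.08, 1.28 and 1.19 in the PC libraries. The lowest PC value thus lay above the highest MBC value, and MBCs averaged 0.663 ± 0.120 (SD, n = 3) against 1.19 ± 0.0814 (SD, n = 4) in PCs. TPM is a level per length of transcript. Weighted by transcript length, the ratio was 0.0936 to 0.131 in MBCs and 0.185 to 0.240 in PCs. The weighted ratio was lower in both groups, and PCs were 1.93-fold higher in mean against 1.79-fold unweighted, or 1.96-fold unweighted without the library labelled MBC replicate 3. Within all immunoglobulin TPM, the Ighv genes made up 14.0% to 15.8% in MBCs and 19.6% to 22.7% in PCs.

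The V repertoire was narrow in MBC replicates 1 and 2 and broad in all other libraries. The effective number of genes, the exponential of the Shannon entropy of the shares, is the number of equally used genes that would be as diverse. The narrow libraries, MBC replicates 1 and 2, had 14.5 and 12.5. The library labelled MBC replicate 3 had 54.9, and the PC libraries had 39.5, 43.2, 45.7 and 52.6. The MBC mean of 27.3 ± 23.9 (SD, n = 3) overlapped with the PC mean of 45.2 ± 5.52 (SD, n = 4). Without the library labelled MBC replicate 3 the MBC mean was 13.5 ± 1.45 (SD, n = 2) and the groups did not overlap.

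Other measures of breadth also put MBC replicates 1 and 2 below all other libraries. The inverse Simpson number, which weights common genes more, was 6.65, 5.40 and 34.6 over the MBC libraries and 23.0 to 36.5 over the PC libraries. Pielou evenness, the entropy as a share of its maximum for the genes seen, was 0.645, 0.655 and 0.852 in MBCs and 0.774 to 0.815 in PCs. The smallest set of genes that made up 50% of the Ighv total held 2, 3 and 14 genes in the MBC libraries and 9, 10, 12 and 14 genes in the PC libraries. The 10 largest genes took 76.4%, 79.2% and 42.0% in MBCs and from 42.8% to 55.0% in PCs. Without the library labelled MBC replicate 3, the groups overlapped in none of these measures of breadth.

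The number of V genes seen followed the same pattern. Of the members, 63, 47 and 110 were above 0 in the MBC libraries and 114, 130, 115 and 129 in the PC libraries, a count that depends on depth. Genes at 0.1% or more of the Ighv total, a level that is worth at least 3 reads in every library, came to 48, 39 and 86 in MBCs and to 75 to 80 in PCs. The library labelled MBC replicate 3 thus had the most such genes, although its estimated Ighv reads lay between those of the other MBC libraries. Members above 0 in all 7 libraries numbered 33, members above 0 in all PC libraries 103, and members at 0 in all libraries 47. Pseudogenes took at most 0.624% of the Ighv total in any library.

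**Figure D1:**
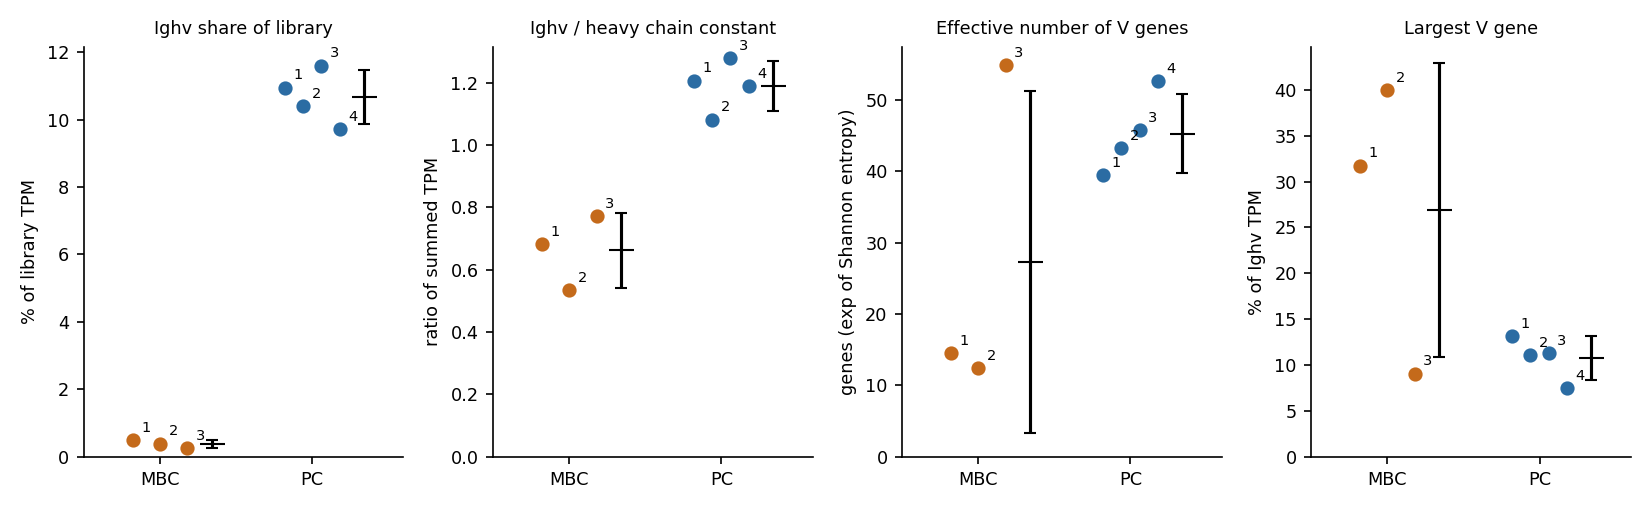
Measures of the Ighv genes in each library: share of library TPM (%), ratio of summed Ighv to heavy chain constant TPM, effective number of V genes, and share of the largest V gene (% of Ighv TPM). Points are libraries with their replicate number (orange MBC, blue PC), and bars are group means ± SD. On the left-hand measures all PC libraries lie above all MBC libraries. In effective number MBC 3 (54.9) lies above all PC libraries and MBC 1 and 2 (14.5 and 12.5) lie below them.

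The dominant genes were different in each narrow MBC library. In MBC replicate 1, Ighv1-59 took 31.7% of the Ighv total and Ighv1-39 19.7%. In MBC replicate 2, Ighv8-8 took 40.0%, Ighv6-3 9.89% and Ighv1-9 8.20%. Hardly any of these carried over between the pair: Ighv1-59 was at 0.160% and Ighv1-39 at 0 in MBC replicate 2, and Ighv8-8 was at 0.0847% and Ighv6-3 at 0 in MBC replicate 1. In the library labelled MBC replicate 3 the largest genes were Ighv1-80 with 9.06% and Ighv1-81 with 7.39%, both of the Ighv1 family at the end of the locus farthest from the D segments.

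The largest genes of the PC libraries also differed, at lower shares. Ighv1-59 took 13.1% in PC replicate 1, Ighv1-72 11.1% in PC replicate 2, Ighv1-50 11.3% in PC replicate 3 and Ighv8-8 7.49% in PC replicate 4. Each of these was a peak of 1 library. Ighv1-50 was between 0.552% and 1.19% in the other PC libraries, Ighv1-72 between 2.35% and 2.94%, and Ighv1-59 between 0.436% and 0.735%. Ighv8-8 was between 1.23% and 2.67% in the other PC libraries.

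A set of V genes was instead high in every PC library. Ighv1-9 took 5.07%, 5.67%, 6.71% and 5.53% in PC replicates 1 to 4, the highest PC mean of all members at 5.75% ± 0.694 (SD, n = 4). It was at 0.398%, 8.20% and 3.98% in the MBC libraries, so the groups overlapped. Ighv3-6 took 3.28% to 7.18% in PCs and 0.845%, 2.93% and 3.34% in MBCs. Ighv1-64 took 2.11% to 3.74% in PCs and 0.741%, 0.0569% and 2.65% in MBCs. Ighv1-55 took 1.81% to 5.02% in PCs and 0.298%, 0.325% and 2.81% in MBCs. In Ighv3-6, Ighv1-64 and Ighv1-55 the groups overlapped through the library labelled MBC replicate 3 alone.

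Ighv1-80 and Ighv1-81, neighbours at the distal end, were lower in PC replicate 1 than in the other PC libraries. The screen of PC libraries described below flagged neither gene. Ighv1-80 was at 0.604% in PC replicate 1 but at 9.79%, 6.33% and 5.74% in PC replicates 2 to 4. Ighv1-81 was at 1.78% in PC replicate 1 against 3.84% to 5.16%. PC replicate 1 had its own high genes, with Ighv1-75 at 6.46% and Ighv1-62-2 at 5.11%, against at most 0.943% and 0.965% in the other PC libraries. These last 2 genes were singled out after their values were seen, by a share of 5% or more in a library.

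Over the 54 genes with a mean PC share of 0.5% or more, which together held 91.2% of the PC Ighv total, the highest PC share was a median 2.84 times the lowest. The ratio was at most 2 for 15 of the 54 genes and over 5 for 15. It ran from 1.24 for Ighv2-2 to 30.2 for Ighv1-59.

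**Figure D2:**
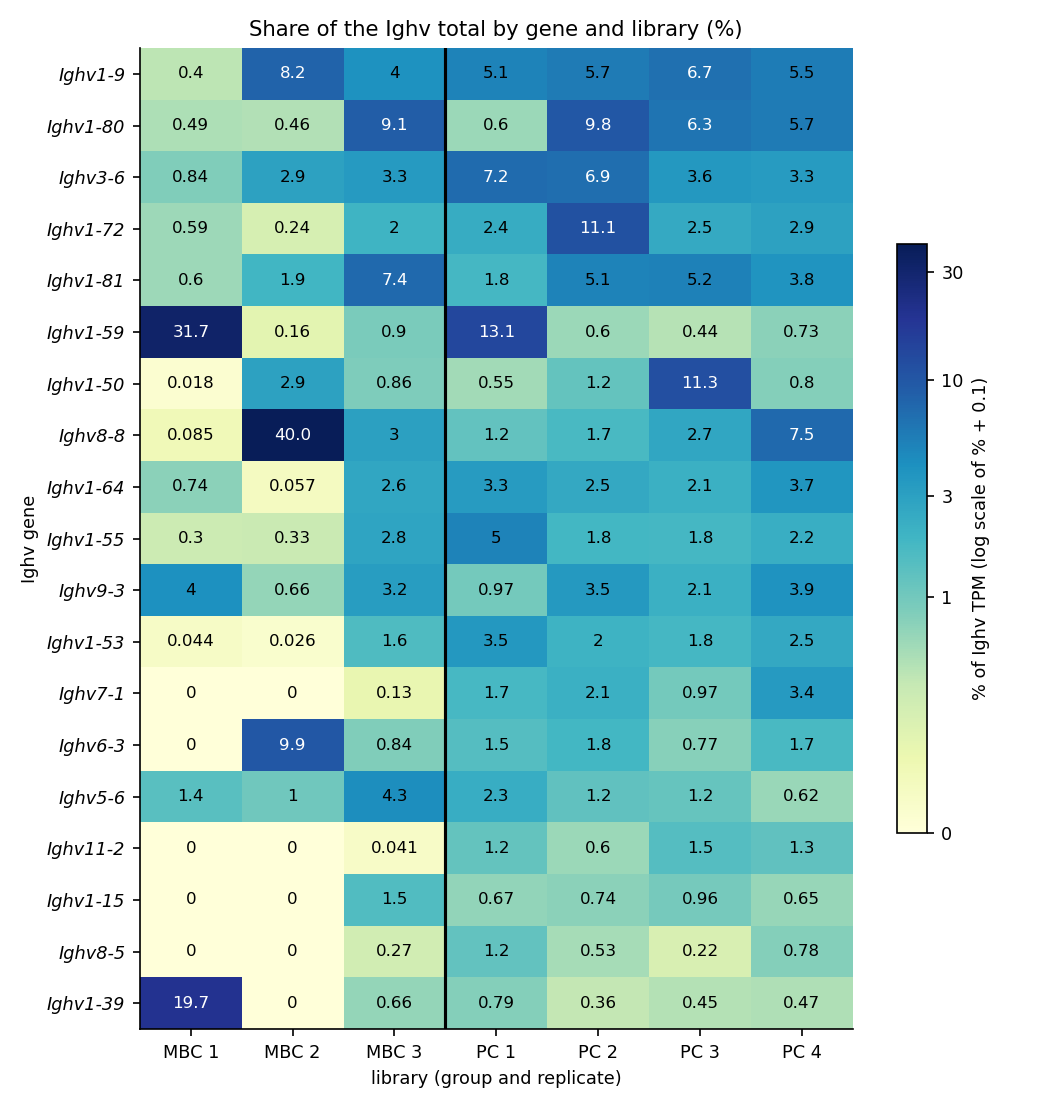
Heat map of the share of each library's Ighv TPM (%) taken by the named genes that reach 1% in some library, ordered by mean PC share, with MBC libraries left and PC libraries right of the line; colour is on a log scale of the share plus 0.1, and the share is printed in each cell. Ighv1-59 stands out in MBC 1 and PC 1 (31.7% and 13.1%), Ighv8-8 in MBC 2 (40.0%), and Ighv7-1 and Ighv11-2 are near 0 in all MBC libraries.

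The libraries' titles carry a code, and 3 codes occur in both groups: MBC replicate 1 with PC replicate 1, MBC replicate 2 with PC replicate 3, and the library labelled MBC replicate 3 with PC replicate 4. What a code stands for is not given in the labels. Ighv1-59 was the largest gene of both libraries of the first code, and in no other library did it reach 1%. It was at 853 and 22629 scaled TPM there, so MBC replicate 1 had 3.77% of the PC level. Of the 6 plasma cell markers, 3 lay below that percentage and 3 above it. Sdc1 was at 0, Jchain, which encodes the joining chain of polymeric antibody, at 0.754%, Mzb1 at 1.90%, Xbp1 at 7.76%, Prdm1 at 10.9% and Irf4 at 13.5% of the PC replicate 1 level. MBC replicate 2 had 0, 0.662%, 1.76%, 7.46%, 0 and 5.40% of that level in the same order. The part of PC transcripts in MBC replicate 1 was not tested.

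The kappa light chain showed the same pair. Igkv5-39 took 57.6% of the kappa variable TPM in MBC replicate 1 and 55.2% in PC replicate 1, while PC replicate 3 had 14.9% and no other library more than 3.65%. Ighv1-39, the second gene of MBC replicate 1, did not follow: it was at 0.792% in PC replicate 1 and at 0.360% to 0.472% in the other PC libraries. Bulk values do not pair a heavy chain with a light chain, so whether Ighv1-59 and Igkv5-39 came from the same cells was not tested.

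The other codes gave a mixed picture. Ighv1-50, the largest gene of PC replicate 3, was at 2.90% in MBC replicate 2 of the same code, against 0.0180% and 0.863% in the other MBC libraries. Ighv8-8, the largest gene of MBC replicate 2, was at 2.67% in PC replicate 3 but at 7.49% in PC replicate 4, which carries another code. Of the 17 genes at 1% or more in MBC replicate 2, 8 had their highest PC share in PC replicate 3, where they summed to 44.3% against 25.8% to 36.1% in the other PC libraries. Of the 18 such genes of MBC replicate 1, 6 had their highest PC share in PC replicate 1, where they summed to 36.0% against 16.2% to 18.4%. The 27 such genes of the library labelled MBC replicate 3 summed to 60.3% in PC replicate 4, below the 69.6% in PC replicate 2.

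The likeness of whole V profiles was measured as the overlap, the sum over genes of the smaller share of a pair of libraries, over all 185 members. The PC libraries overlapped by 54.0% to 74.5% with each other. The library labelled MBC replicate 3 overlapped with the PC libraries by 54.4% to 73.3%, within the range of PC pairs, and with MBC replicates 1 and 2 by 29.0% and 34.4%. MBC replicates 1 and 2 overlapped by 13.2% with each other, the lowest of the 21 pairs. MBC replicate 1 overlapped most with PC replicate 1 of its own code, at 36.7% against 25.0% to 27.0%. MBC replicate 2 overlapped by 35.3% with PC replicate 3 of its code but by 40.1% with PC replicate 4. Pearson's r across the 185 genes, which include the 47 at 0 throughout and are not independent replicates, was 0.89 to 0.96 between PC libraries on log2(share in units of 0.01% + 1) and 0.37 between MBC replicates 1 and 2.

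**Figure D3:**
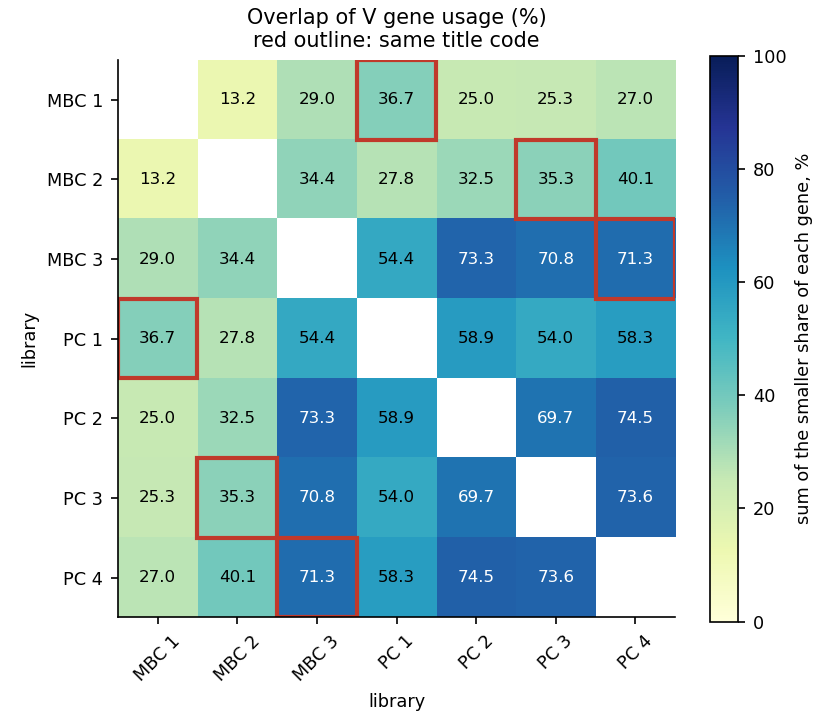
Overlap of V gene usage (%), the sum over genes of the smaller of both shares, for each of the 21 pairs of libraries; rows and columns are libraries and red outlines mark pairs of MBC and PC libraries with the same title code. PC libraries and MBC 3 form a block at 54.0% to 74.5%, and MBC 1 and MBC 2 share 13.2%.

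By family, the Ighv1 genes led every library but 1. They took 67.6%, 63.2%, 60.4% and 52.9% of the Ighv total in PC replicates 1 to 4, with a mean of 61.0% ± 6.17 (SD, n = 4), and make up 50.3% of the members. In MBCs they took 76.1%, 24.9% and 59.4%. MBC replicate 2 was the exception, with 41.3% for the Ighv8 family, nearly all from Ighv8-8, and 10.5% for the Ighv6 family (J606), nearly all from Ighv6-3. In the PC libraries Ighv8 took 3.01% to 9.78% and Ighv6 1.92% to 2.62%.

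The Ighv7 and Ighv11 families were the ones whose groups did not overlap. The 4 genes of Ighv7, the S107 family, took 1.58%, 1.37% and 1.35% in MBCs and 2.48%, 2.87%, 2.43% and 4.84% in PCs. The 2 genes of Ighv11 took 0, 0 and 0.0408% in MBCs and 1.21%, 0.601%, 1.49% and 1.31% in PCs, nearly all from Ighv11-2. Within Ighv7, the shares of Ighv7-1 did not overlap between the groups. Those of Ighv7-3 did, at 1.13% to 1.58% in MBCs and 0.669% to 1.40% in PCs. Ighv2, Ighv3, Ighv5, Ighv9 and Ighv14 overlapped between the groups, with PC means of 6.53%, 6.26%, 5.26%, 3.44% and 2.79%. The PC libraries held Ighv5 within 4.62% to 5.76%, whereas the MBC libraries spread from 1.75% to 10.1%.

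**Figure D4:**
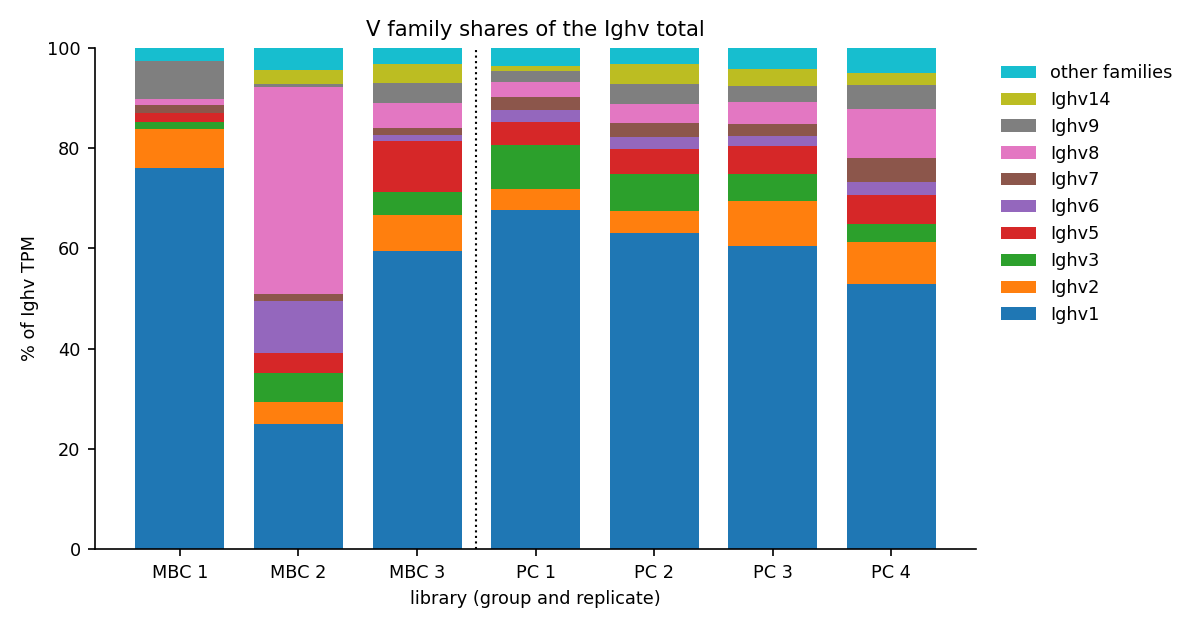
Stacked bars of the share (% of Ighv TPM) of each V family in each library, with 7 smaller families summed as other families. Ighv1 is the largest part of 6 libraries (52.9% to 76.1%), and in MBC 2 it is 24.9% while Ighv8 is 41.3%.

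Position along the locus separated the libraries less. V genes near the D segments, at the low-coordinate end of this minus-strand locus, are the first that developing B cells tend to use. The 92 members nearest to the D segments took 26.3%, 44.0% and 42.4% of the Ighv total in MBCs and 35.4%, 41.0%, 43.8% and 44.9% in PCs, and the groups overlapped. Ighv5-2, also called 81X, is the best-known D-proximal gene. It took 0, 0.682% and 0.256% in MBCs and 0.0259% to 0.0918% in PCs.

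Gene by gene, the test compared the level of each gene, not its share. Of the 185 members, 110 reached 1 TPM in at least 3 libraries and were tested with limma on log2(scaled TPM + 1) among 11573 genes. At an adjusted p under 0.05 and a log2 fold change of at least 1, 91 were higher in PCs and 0 lower, and at an unadjusted p under 0.05 104 were higher and 0 lower. Over all genes tested, 6.41% were called higher and 2.14% lower, or 742 and 248 genes. A gene could pass the filter through the PC libraries alone, so the count of members called is a description. All 110 fitted fold changes were above 0, with a median of 6.56 against 0.14 over all genes tested. On TPM as deposited, without scaling, the medians were 5.50 and -0.91, with 89 members and 472 of all genes called higher and 3018 of all genes lower.

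In 96 of the 110 tested members the scaled TPM of every PC library was above that of every MBC library, against 13.0% of all genes tested. The 101 V genes tested gave 87 of the calls and the 9 pseudogenes tested the other 4. The 75 members not tested included 12 annotated V genes and the 47 members at 0 throughout. Among those 12 genes, Ighv6-4 and Ighv8-9 were seen almost only in PC replicate 1, at 101 and 39.5 TPM as deposited. Both were singled out after their values were seen.

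The largest fold changes belonged to V genes that MBCs hardly used. Ighv7-1, known as the T15 gene of the antibody response to phosphorylcholine, was at 0, 0 and 1.66 scaled TPM in MBCs and 3001, 3321, 1387 and 4562 in PCs. Its log2 fold change was 10.99 (SE 0.50, limma adjusted p = 3.17e-06). Ighv11-2, known from B-1 cells that bind phosphatidylcholine, was at 0, 0 and 0.517 in MBCs and 2071, 928, 2086 and 1711 in PCs, and its log2 fold change reached 10.46 (SE 0.38, limma adjusted p = 2.33e-06). Every PC library was above every MBC library in both genes. These fold changes depend on the 1 added before the log and are no bounds: with 0.1 added they were 13.40 and 13.11. The PC libraries sufficed for both genes to pass the filter, and MBC replicates 1 and 2 listed them at 0. Their fold changes, SEs and p-values are therefore descriptions.

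The shares of both genes were also apart. Ighv7-1 took 0.131% of the Ighv total in the library labelled MBC replicate 3 and 0.972% to 3.36% in PCs, and Ighv11-2 0.0408% against 0.600% to 1.46%. MBC replicates 1 and 2 listed both at 0, where up to 0.0833% would be possible at that depth. Ighv12-3, the other V gene known from phosphatidylcholine binding, was not set apart in share. It took 0, 0.202% and 0.372% in MBCs and 0.0128% to 0.1003% in PCs, so the groups overlapped. Its level was still higher in PCs, at 22.0 to 136 scaled TPM against at most 5.31, a log2 difference of 3.83 (SE 0.80, limma adjusted p = 0.0170) whose call was lost in 4 alternatives.

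Ighv1-53, Ighv8-5 and Ighv1-15 followed with log2 fold changes of 9.71, 9.05 and 8.68. Ighv1-53 was at 1.19, 0.674 and 20.2 scaled TPM in MBCs and at 2560 to 6106 in PCs. MBC replicates 1 and 2 listed Ighv8-5 and Ighv1-15 at 0, and the library labelled MBC replicate 3 at 3.43 and 19.4. In each of the 3 genes that library held the only MBC value above the level of 3 reads.

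Ighv1-72, the V186.2 gene known from the response to the hapten NP, was at 15.7, 6.25 and 24.9 scaled TPM in MBCs and at 4054, 17189, 3533 and 3980 in PCs. Its log2 fold change was 8.58 (SE 0.63, limma adjusted p = 5.56e-05), and its share in every PC library (2.35% to 11.1%) was above that in every MBC library (0.238% to 1.96%). Its near-identical copy Ighv1-62-3 took 0.0358% to 0.168% in PCs and at most 0.128% in MBCs, so nearly all reads of the pair were given to Ighv1-72.

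The genes that dominated MBC libraries had large fold changes with wide errors. Ighv1-59 was at 853, 4.22 and 11.4 scaled TPM in MBCs and at 22629, 935, 621 and 996 in PCs. The groups overlapped, and its log2 fold change of 5.64 (SE 1.73) was not called, with a limma adjusted p of 0.0810. Ighv1-39 was at 529, 0 and 8.36 in MBCs and 1364, 556, 638 and 639 in PCs, with 5.45 (SE 1.64) and an adjusted p of 0.0757. Both were called without MBC replicate 1, at 7.89 and 7.93, and also with the title codes or replicate numbers as a block, as given at the end. Within each of the 3 pairs of libraries with the same title code, both genes were higher in the PC library.

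Ighv8-8 was at 2.28, 1052 and 37.4 scaled TPM in MBCs and at 2125, 2634, 3806 and 10158 in PCs. Its log2 fold change was 6.23 (SE 1.54, limma adjusted p = 0.0362), a call lost in 10 of 19 alternatives, with adjusted p-values up to 0.1502. Leaving out any library other than MBC replicate 2 ended the call. Ighv6-3, at 0, 260 and 10.7 in MBCs and 1094 to 2813 in PCs, rose by 7.16 (SE 1.45, limma adjusted p = 0.0150), a call lost in 2 alternatives. Ighv5-2 rose by 3.92 (SE 0.87, limma adjusted p = 0.0222), a call lost in 7 of 19 alternatives, among them leaving out any PC library.

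Of the 10 genes with the highest mean shares in PCs, Ighv1-59 was not called and the call of Ighv8-8 depended on the processing. Ighv1-9, Ighv3-6, Ighv1-80, Ighv1-81, Ighv1-64, Ighv1-55 and Ighv1-50 had log2 fold changes between 6.99 and 8.46, all called. Ighv9-3 and Ighv5-6, among the 10 highest mean shares in MBCs, rose by 6.30 and 5.52. At the low end were 5 pseudogenes, Ighv3-2, Ighv5-21, Ighv1-83, Ighv1-38 and Ighv1-70, with fitted values of 0.44 to 1.78, none called. Ighv3-2 was at 9.62 scaled TPM in MBC replicate 1, at 0 in the other MBC libraries and at 0.645 to 3.67 in PCs.

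In shares, 14 of the 110 tested members (12.7%) were above all MBC libraries in all PC libraries, and 1 (0.909%) was below. Among the 14 were Ighv5-3, Ighv4-2, Ighv11-1, Ighv1-23 and Ighv1-37, listed at 0 in all MBC libraries. They took at most 0.0494% in any PC library, under the level of 3 reads in MBCs, so depth alone could set them apart. Ighv1-56, named after its values were seen, was also among the 14 and at 0 in all MBC libraries. It took 0.0686%, 0.283%, 0.000966% and 0.0206% in PC replicates 1 to 4. Only its share in PC replicate 2 was above the level of 3 reads in MBCs. Shares of the Ighv total exist for members only, so no rate over all genes stands beside these counts. The member below was Ighv2-6-8, named after its values were seen. It took 1.96%, 2.91% and 1.63% of the Ighv total in MBCs and 0.106%, 0.173%, 0.0752% and 0.663% in PCs. Its level was nonetheless higher in PCs, at 107 to 898 scaled TPM against 20.7 to 76.4, with a log2 fold change of 2.55 (SE 0.70) that was not called at a limma adjusted p of 0.0536. Ighv10-1, also named after its values were seen, went the other way. It took 0.243% to 0.605% in MBCs and 1.13% to 1.78% in PCs. Ighv10-3 of the same family overlapped between the groups, at 1.92%, 3.97% and 0.585% in MBCs and 0.340% to 0.896% in PCs.

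**Figure D5:**
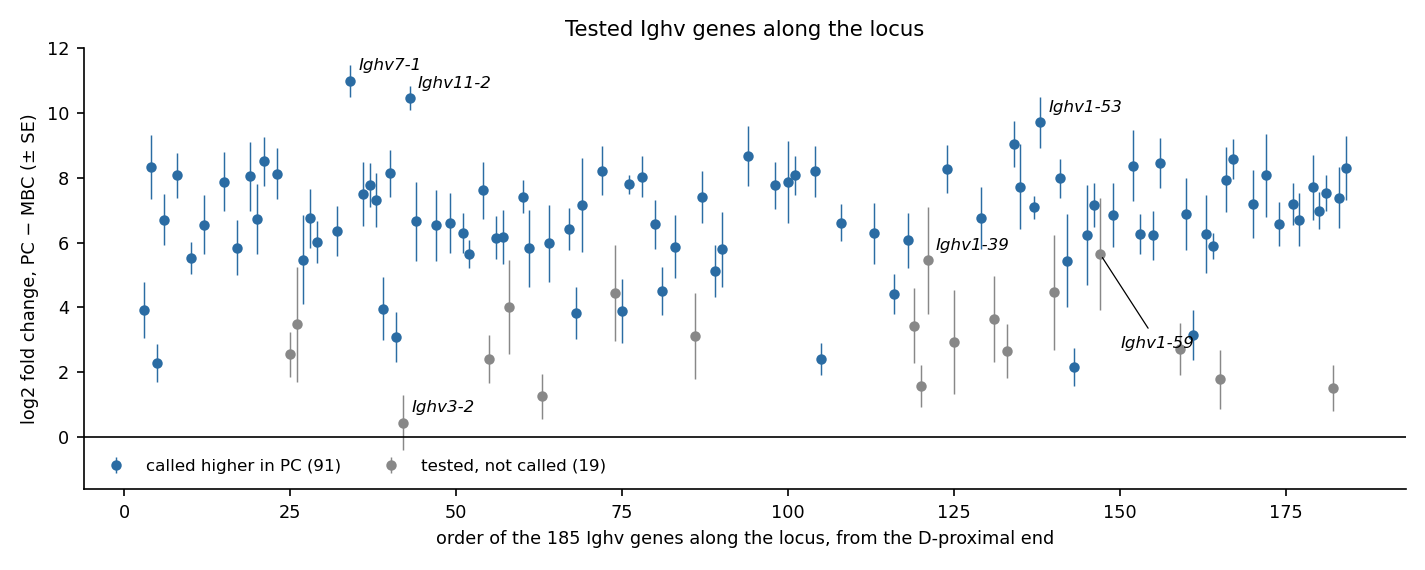
Log2 fold change (PC minus MBC, on log2(scaled TPM + 1)) with SE for the 110 tested Ighv genes, in their order along the locus from the D-proximal end; blue points were called higher in PCs (91) and grey points were not called (19). All points lie above 0, from Ighv3-2 (0.44) to Ighv7-1 (10.99), and called genes occur along the whole locus.

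The genes that work with the V genes moved in part with them. Of the 8 heavy chain constant genes, which encode the antibody classes, 6 rose and none fell. Ighm rose by 5.36 (SE 0.60) and Ighg2c by 8.11 (SE 0.61), while Igha had 4.81 (SE 1.37) and Ighd -0.39 (SE 0.68), neither called. All 4 light chain constant genes rose, among them Igkc by 5.78 (SE 0.57). Of the signalling partners of the membrane receptor, Cd79a and Cd79b had -0.36 and -1.05, not called, whereas Jchain rose by 6.88 (SE 0.38).

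Of the genes of V transcription, 1 of 3 rose and 1 fell. Pou2af1, which encodes the coactivator OBF1 that acts with octamer-binding factors on immunoglobulin promoters, rose by 1.16 (SE 0.29, limma adjusted p = 0.0394). Pou2f2, which encodes the octamer-binding factor Oct2, fell by 1.65 (SE 0.42, limma adjusted p = 0.0413), and Pou2f1 had -0.05. Rag2, a recombinase gene of V(D)J joining, was at 0 in all MBC libraries and at most 7.19 scaled TPM in PCs. The 4 heavy chain joining genes were listed at 0 in all libraries and were not tested.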

How the data were processed

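Bulk RNA of 3 MBC and 4 PC libraries was made into cDNA with a Nugen kit before Illumina HiSeq sequencing. The authors deposited TPM (reads per length of transcript, scaled to a common library total) with 2 decimals for 48795 Ensembl genes. The submitters' processing notes name STAR 2.5.2a, RSEM 1.3.0, DESeq2 1.18.1 and the build GRCm38. The annotation release is not given in the sources used here. Symbols, gene types, positions and transcripts came from GENCODE mouse M21 by gene ID, with 48349 matched. Groups and replicate numbers came from the sample descriptions.

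Each library was scaled by the median, over the 9305 genes listed above 0 everywhere, of its ratio to the genes' geometric means, which gave scaled TPM. In at least 3 libraries, 11573 genes reached 1 TPM, and these were fitted with limma 3.58.1 in R 4.3.3 (lmFit, eBayes with trend) on log2(scaled TPM + 1), with no covariate, since the body of the study states no test for these libraries. P-values were Benjamini-Hochberg adjusted over all genes tested. Fold changes on this scale understate those of low genes. Shares, effective numbers, families and overlaps used TPM as deposited and are descriptions without a test. V exons were aligned with Biopython 1.88 (Python 3.11.15, pandas 2.3.3, numpy 2.4.6, matplotlib 3.10.9).

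Depth was estimated from low TPM values of single-transcript genes of 600 to 1500 bases, of which 75.1% to 84.0% lay within 0.15 of a whole read count (coincidence would give 30%). In 4 libraries simulated with whole reads under the same model, the error of the worth of 1 read was at most 0.474%. That check did not cover genes as short as V genes. The Ighv read totals and floors also rest on a fitted length offset of 180 to 220 bases, against a median V transcript of 353 bases. Their error was not tested. No molecular identifiers are named in the sources used here, so floors cover counting error only. On simulated data for 11344 genes, limma recovered 62% of genes changed by 4 and 17% of those changed by 2 on the log2 scale, with 6 false calls.

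Genes were named by rule: the 10 highest mean shares in each group, the largest gene of each library, the 5 highest and 5 lowest fold changes, and Ighv11-2, Ighv12-3, Ighv1-72, Ighv7-1 and Ighv5-2. The members, the lists and the rule were chosen with earlier results of these data known. The depth estimate, the inverse Simpson number, the level of 0.1%, the level of 5% and the sums of genes at 1% or more were added after the data were seen. A result for 1 listed gene is not reported here. Alternatives were other scalings, pseudocounts and filters, no trend, a block, a prefix covariate, other gene sets and each library left out.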

Additional observations from a re-analysis of the deposited data

Results flagged for a closer look

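In the group of 4 PC libraries, 47 values (library values, family shares and shares of named genes) were screened for a library far from the other 3, and 5 were found. Chance alone gives about 1 in 20 groups, a rate that does not hold for genes named for a high PC share. Ighv1-59, Ighv1-50, Ighv1-72 and Ighv1-55 were such genes. The gap to the nearest library was compared with the range of all 4. Ighv1-59 in PC replicate 1 stood at 13.1% of the Ighv total against 0.436% to 0.735%, with the gap at 0.976 of the range. Ighv1-50 in PC replicate 3 stood at 11.3% against 0.552% to 1.19%, and Ighv1-72 in PC replicate 2 at 11.1% against 2.35% to 2.94%. Ighv1-55 in PC replicate 1 stood at 5.02% against 1.81% to 2.24%. The Ighv10 family in PC replicate 4 stood at 2.68% against 1.65% to 1.81%.

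In a calculation added after the data were seen, leaving Ighv1-59 out of the Ighv total moved the effective number from 39.5 to 44.0 in PC replicate 1 and from 14.5 to 20.1 in MBC replicate 1, so MBC replicate 1 stayed below all PC libraries, whose lowest value was then 42.6.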

How the results depend on the processing

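The number of Ighv genes called higher in PCs was 91 and lay between 73 (all genes above 0, 138 members tested) and 91 over 19 alternatives, with 82 to 90 when 1 library was left out, and 0 were lower throughout. Over all genes, 742 were called higher and 248 lower, against 437 and 123 with all genes above 0, 472 and 3018 on TPM as deposited and 675 and 460 after quantile normalization. With 1 library left out, 455 to 1635 were higher and 92 to 876 lower, the highest counts without the library labelled MBC replicate 3. Weighting TPM by transcript length moved the difference in the Ighv share of the library from 10.3 to 2.62 percentage points and that in the ratio to constant genes from 0.526 to 0.106, since both groups have lower values on that scale. In folds of PC over MBC it moved the share from 28.1 to 49.3 and the ratio from 1.79 to 1.93. The remaining 65 alternatives of library values and all 176 of family shares stayed within 1 SD. Where 1 MBC library stood apart the SD was wide, so this does not show that sign or group overlap was kept. In effective number the groups overlapped with all libraries but not without the library labelled MBC replicate 3. For Ighv8 the MBC mean of 15.8% (SD 22.1) lay above the PC mean of 5.24% through MBC replicate 2 alone. MBC replicate 1 (1.197%) and the library labelled MBC replicate 3 (4.93%) lay below that PC mean. Among the named genes the fold change of Ighv3-2 turned negative on TPM as deposited (-0.11), within the more frequent title prefix (-0.089) and with 5 added (-0.0065), and ran from -0.13 to 1.58 with 1 library left out. None of its values was called. In other named genes 23 alternatives ended a call and 7 gave one.

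The title codes as a replicate block gave 86 Ighv genes higher, and the replicate numbers as a replicate block 89, with 434 and 390 of all genes higher and 83 and 60 lower. Ighv1-59 (5.99 and 5.96) and Ighv1-39 (5.59 and 5.53) were called under both. Over the 11573 genes tested, deviations from the group means correlated by 0.11, -0.004 and 0.22 in pairs of the same code. In pairs of the same number they correlated by 0.11, -0.04 and -0.08. Neither was therefore taken to pair the libraries, although values from so few libraries cannot exclude pairing. By code, MBC replicate 1 and the library labelled MBC replicate 3 correlated best with their own code over these genes, and MBC replicate 2 did not. Over the 110 tested Ighv genes this held for MBC replicate 1 alone.

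The MBC Ighv totals rest on few reads, so shares under 0.0833% cannot be told from 0 there, and single MBC genes are imprecise. Somatic mutation and near-identical copies can move reads between members, which was not tested.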
